A study of Homo sapiens with 6 samples.

Results

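This account covers the genes of the nucleus that encode subunits of the respiratory chain and of ATP synthase in HCT116 cells, a widely used human cell line grown from a poorly differentiated carcinoma of the colon. Rows were chosen by gene symbol alone (symbols that begin with NDUFA, NDUFB, NDUFC, NDUFS or NDUFV and a digit, SDHA to SDHD, UQCR, COX4 to COX8 followed by A, B or C, or ATP5, without symbols that end as numbered pseudogenes do), which gave 90 of the 28278 symbols in the tables. Of these, 85 name a subunit gene, 2 name read-through transcripts and 3 name noncoding genes. ATP5IF1, an inhibitor of ATP synthase, is counted with the subunit genes. The cells stably carried either an shRNA against TRIM21 (shTRIM21, 3 libraries) or a scrambled shRNA (shControl, 3 libraries). All 6 cultures were infected with lentivirus, were put under puromycin at 5 µg/ml from 36 h after infection for 2 to 3 weeks, and are labelled day 21, so selection and infection are shared by both groups. The labels call the libraries biological replicates without naming separate infections, clones or the number of shRNA sequences, so p-values measure only the spread between these libraries, which may be technical.

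The respiratory chain passes electrons from NADH (complex I) and succinate (complex II) through ubiquinone, complex III and cytochrome c to oxygen at complex IV. Complexes I, III and IV pump protons across the inner mitochondrial membrane, and ATP synthase (complex V) uses their return to make ATP. Most subunits are encoded in the nucleus, and the core subunits of the membrane arms are encoded in mitochondrial DNA, which was not analysed here. Many nuclear subunits are accessory: they carry no redox centre and stabilise the complex. Promoters of these genes are known for binding NRF1, ETS-family factors such as GABPA, and YY1.

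Total RNA depleted of ribosomal RNA was sequenced to 25842818, 22656160 and 25220745 counts in the shTRIM21 libraries, against 25078521, 24646400 and 27123657 counts in the shControl libraries. TRIM21, an E3 ubiquitin ligase, was at 8.83, 8.18 and 6.68 CPM (counts scaled to library size) in shTRIM21 cells, against 11.8, 11.7 and 15.8 CPM in shControl cells. It fell, with a log2 fold change of -0.73 (SE 0.17, adjusted p = 0.0124 from edgeR's quasi-likelihood test, Benjamini-Hochberg). The call was lost without shTRIM21 replicate 3 (log2 fold change -0.62, adjusted p = 0.0734), and also when both replicate 3 libraries were dropped (-0.45, adjusted p = 0.114). Of 11 colon epithelium markers 8 were tested and 0 were called, with summed levels of 172 to 174 CPM in shTRIM21 libraries and 185 to 198 CPM in shControl libraries, while CDX1 and LGALS4 were at 0. Markers of fibroblasts, endothelium and muscle summed to at most 0.498 CPM in any library. Of 7 leukocyte markers only CD68, a lysosomal protein, was tested, and it rose (log2 fold change 0.57, adjusted p = 3.8e-05). The other 6 leukocyte markers summed to 0 to 0.135 CPM in shTRIM21 libraries and 0.164 to 0.409 CPM in shControl libraries, with LYZ at 0.

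Promoter windows are shown first, for 3 complex IV genes that rose and hold the core of an ETS site, and for ATP5IF1, which rose and holds none of the motifs searched. Each runs from 250 bases before the RefSeq start of the gene to that start (RefSeq, GRCh38.p14, written 5′ to 3′ on the plus strand, on which all 4 genes lie), and capitals mark a motif. The windows are COX5B at chr2:97645812-97646061, COX6A1 at chr12:120437863-120438112, COX8A at chr11:63974370-63974619 and ATP5IF1 at chr1:28235874-28236123. Their last 22, 23, 13 and 15 bases, in that order, lie within an annotated first exon (GENCODE release 29).
COX5B: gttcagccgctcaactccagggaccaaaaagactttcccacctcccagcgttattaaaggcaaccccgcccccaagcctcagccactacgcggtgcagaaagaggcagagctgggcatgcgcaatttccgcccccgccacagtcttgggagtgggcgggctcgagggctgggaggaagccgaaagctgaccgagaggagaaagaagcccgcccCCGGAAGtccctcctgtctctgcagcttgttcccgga
COX6A1: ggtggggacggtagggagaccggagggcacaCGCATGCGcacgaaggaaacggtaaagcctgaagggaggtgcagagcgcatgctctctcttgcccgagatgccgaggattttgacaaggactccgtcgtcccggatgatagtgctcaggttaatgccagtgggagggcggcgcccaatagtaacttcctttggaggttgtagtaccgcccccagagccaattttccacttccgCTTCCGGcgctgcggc
COX8A: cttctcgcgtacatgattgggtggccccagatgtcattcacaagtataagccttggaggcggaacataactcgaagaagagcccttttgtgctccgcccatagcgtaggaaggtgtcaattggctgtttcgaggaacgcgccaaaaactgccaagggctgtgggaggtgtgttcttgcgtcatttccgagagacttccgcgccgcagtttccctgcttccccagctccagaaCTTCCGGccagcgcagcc
ATP5IF1: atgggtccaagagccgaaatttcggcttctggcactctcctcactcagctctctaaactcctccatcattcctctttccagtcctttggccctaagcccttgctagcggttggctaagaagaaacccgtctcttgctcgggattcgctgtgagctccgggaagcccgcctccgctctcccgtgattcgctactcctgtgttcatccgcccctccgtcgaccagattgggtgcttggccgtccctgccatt
The ETS core (CCGGAAG, reading CTTCCGG where it lies on the minus strand) stands near the start in COX5B, COX6A1 and COX8A, and COX6A1 also holds the NRF1 core CGCATGCG farther upstream. Windows from 250 bases before to 50 bases after the start were found for 70 of the 85 subunit genes, and both strands were searched. The NRF1 core stood in 11 of 70 windows (15.7%) against 2.46% of 27305 genes with a window. The ETS core stood in 20 of 70 (28.6%) against 12.2%, and the YY1 core AAGATGG in 18 of 70 (25.7%) against 7.11%. Matches of different motifs shared letters in 0 of the 70 genes, and 39 of the 70 genes held at least 1 of them. Among the 10 genes that rose and have a window, 4 held the ETS core (COX5B, COX6A1, COX8A and UQCRQ), 1 the NRF1 core (COX6A1) and 1 the YY1 core (NDUFB8). COX7A2L and COX7B, complex IV genes that also rose, held none of the motifs searched. Among the 53 with a window that did not pass the test, 15, 10 and 16 held the ETS, NRF1 and YY1 core. A link between a motif and the call was not tested. UQCRC2, which fell, held the YY1 core only. A match describes the letters of a window and no binding was measured.

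In shTRIM21 cells the subunit genes sat slightly higher than in shControl cells, and complex IV held 6 of the 12 genes that rose. Of the 85 subunit genes 76 had enough counts to be tested. Of these, 12 rose (15.8%), 1 fell (1.32%) and 63 did not pass, where 4.43% of all 14002 tested genes rose and 4.66% fell. The 12 were NDUFA11, NDUFC1, NDUFB8 and NDUFB9 of complex I, UQCRQ of complex III, COX5B, COX8A, COX7A2L, COX7B, COX6A1 and COX6C of complex IV, and ATP5IF1 of complex V, and UQCRC2 of complex III fell. In 67 of the 76 (88.2%) the log2 fold change was above 0, against 51.8% of all tested genes. Every shTRIM21 library lay above every shControl library for 39 subunit genes (51.3%, against 14.1% of all tested genes) and below for 3 (against 13.9%). The median log2 fold change was 0.19 (quartiles 0.12 and 0.28) against 0.01 over all tested genes. Differences were small: 1 tested subunit gene, NDUFA11, passed a fold of 1.5. The summed level of the subunit genes was 4858.5 to 4901 CPM in shTRIM21 libraries and 4354.5 to 4541 CPM in shControl libraries. In bulk libraries fewer cells of a type and less RNA per cell cannot be told apart, and CPM is a share of the RNA counted, not an amount.

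**Figure D1:**
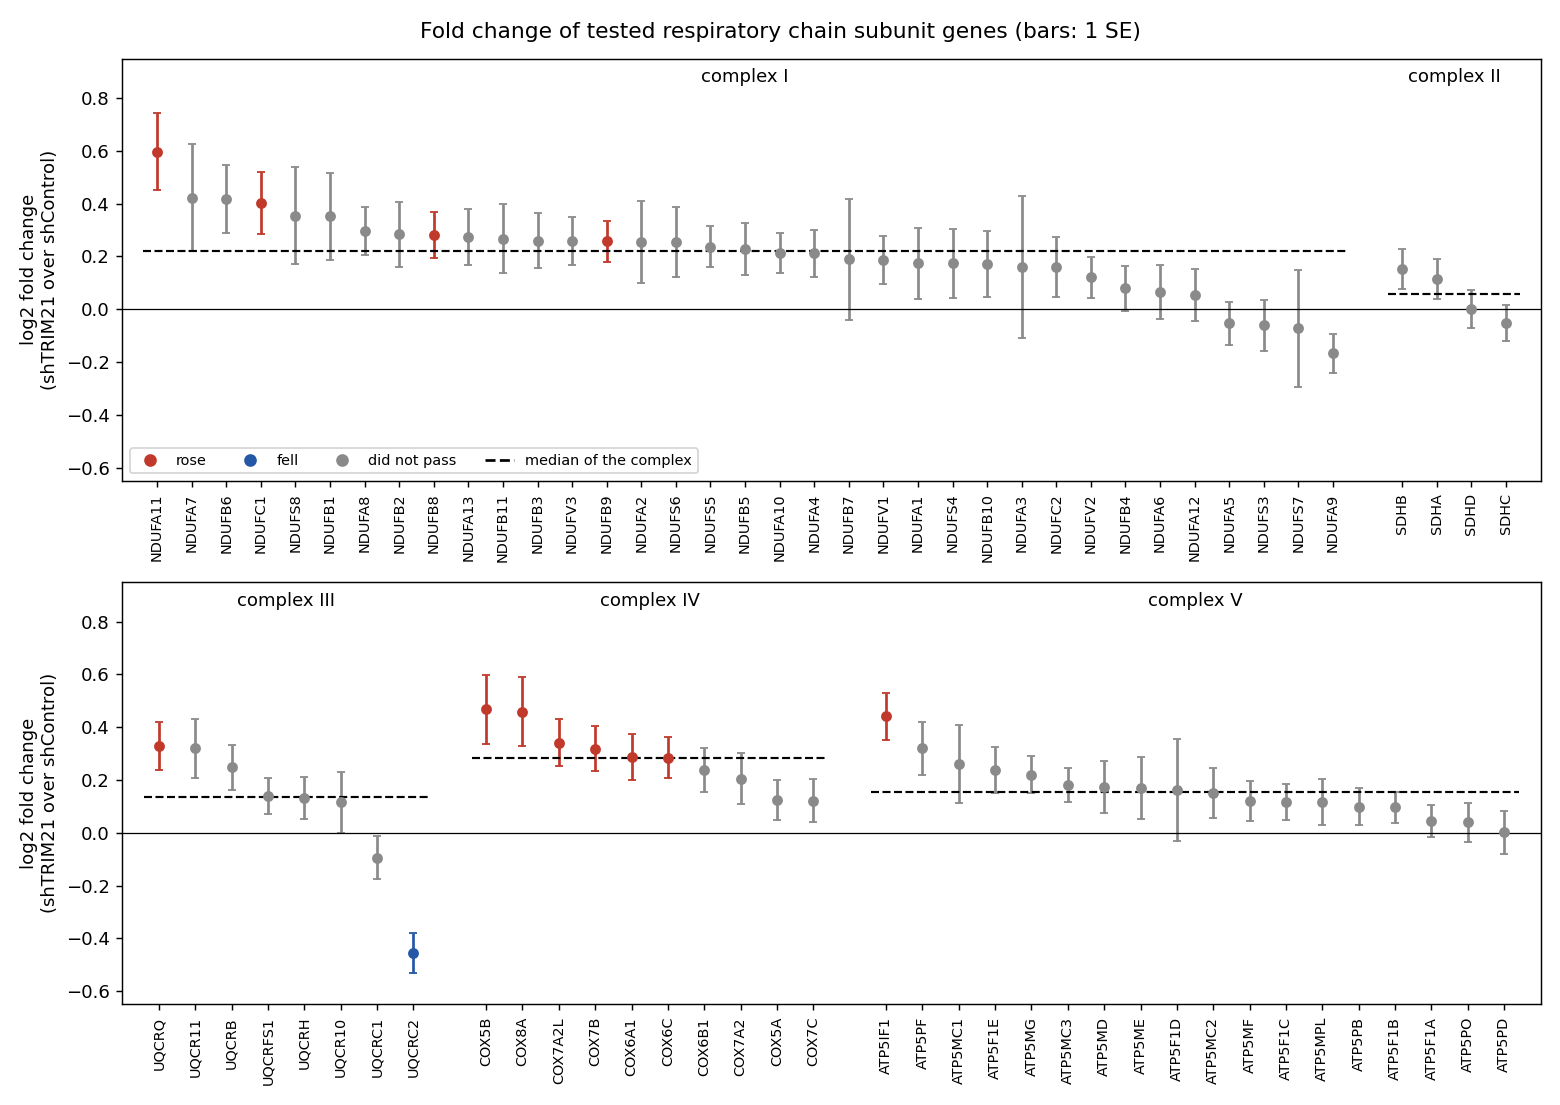
Log2 fold change, shTRIM21 over shControl, of tested subunit genes by complex, with bars of 1 standard error and a dashed line at the median of each complex. Red marks the 12 genes that rose, blue UQCRC2, which fell, and grey genes that did not pass. All complex IV and V points lie above 0, and UQCRC2 stands apart at -0.46.

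The number that rose depended on single libraries. It was 4, 3 and 3 without shTRIM21 replicates 1, 2 and 3, and 5, 4 and 20 without shControl replicates 1, 2 and 3. Calls over all tested genes moved as well, from 9.08% in the main fit, higher and lower together. They were 4.86%, 4.7% and 4.22% without shTRIM21 replicates 1, 2 and 3. Without shControl replicates 1, 2 and 3 they were 4.77%, 5.6% and 12.2%. Among the called subunit genes only UQCRC2 and ATP5IF1 kept their call in all 6 of these fits. The median log2 fold change of the subunit genes was 0.19 to 0.21 across them.

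**Figure D2:**
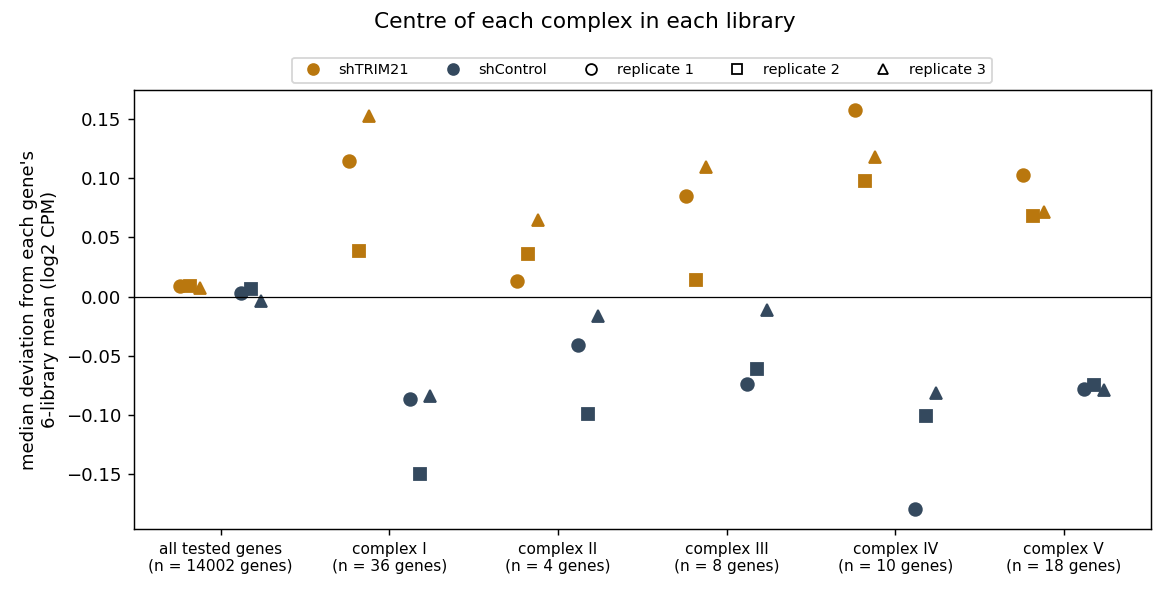
Median over the tested genes of each complex of the deviation from a gene's mean over the 6 libraries, on the log2 CPM scale, with 1 point per library (orange shTRIM21, dark shControl, shape by replicate number). The complexes' points of shTRIM21 libraries lie above those of shControl libraries, widest apart in complex IV, while for all tested genes the groups lie close to 0.

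Complex I, the NADH dehydrogenase, had 38 rows, of which 36 were tested. Of these, 4 rose (11.1%, against 4.43% of all tested genes), 0 fell and 32 did not pass. The median log2 fold change of complex I was 0.22 (0.13 with an offset for length and GC). It had 31 of 36 values above 0 (86.1%, against 51.8% of all tested genes). Its summed level was 1372 to 1425 CPM in shTRIM21 libraries and 1201 to 1290 CPM in shControl libraries. All 4 that rose encode accessory subunits of the membrane arm. NDUFA11 (ENSG00000174886, chromosome 19, 5891276 to 5904006, minus strand, GRCh38) was at 26.0, 20.04 and 20.9 CPM in shTRIM21 cells, against 16.6, 15.7 and 11.96 CPM in shControl cells. It had the highest log2 fold change of the tested subunit genes, 0.60 (SE 0.15, adjusted p = 0.0153, edgeR's quasi-likelihood test, Benjamini-Hochberg). Its groups did not overlap, with shTRIM21 replicate 1 the highest, and the call was lost without that library (log2 fold change 0.47, adjusted p = 0.0924).

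NDUFC1 (ENSG00000109390, chromosome 4, 139266880 to 139302551), a small single-span subunit, was at 26.0, 28.1 and 24.4 CPM in shTRIM21 cells, against 22.2, 19.1 and 18.1 CPM in shControl cells. Its log2 fold change was 0.40 (SE 0.12, adjusted p = 0.0386 by edgeR). NDUFB8 (ENSG00000166136, chromosome 10, 100523740 to 100530000) was at 45.2, 46.6 and 46.2 CPM in shTRIM21 cells, against 40.1, 35.6 and 37.9 CPM in shControl cells. The 3 shTRIM21 values of NDUFB8 lay within 1.39 CPM of each other and above every control. Its log2 fold change was 0.28 (SE 0.09, adjusted p = 0.0499 by edgeR). NDUFB9 (ENSG00000147684, chromosome 8, 124539101 to 124580648) was at 98.7, 100 and 111 CPM in shTRIM21 cells, against 88.1, 78.6 and 92.6 CPM in shControl cells. Its log2 fold change was 0.26 (SE 0.08, adjusted p = 0.0435 by edgeR), and neither NDUFB9 nor NDUFC1 had overlapping groups. Each of these 3 kept its call in 1 of the 6 fits that left out a library: NDUFC1 without shControl replicate 1, and NDUFB8 and NDUFB9 without shControl replicate 3. The NDUFC1 values without a library ran from 0.35 to 0.49 (adjusted p up to 0.165), those of NDUFB8 from 0.24 to 0.32 (up to 0.196), and those of NDUFB9 from 0.19 to 0.32 (up to 0.22). NDUFB8 kept its call in 3 of the other 11 fits (adjusted p up to 0.229), NDUFB9 in 9 and NDUFC1 in 10.

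By symbol group, 2 of 11 NDUFB genes, 1 of 13 NDUFA genes, 1 of 2 NDUFC genes, 0 of 7 NDUFS genes and 0 of 3 NDUFV genes tested rose. All 11 NDUFB values were above 0 (median log2 fold change 0.26). NDUFB6 and NDUFA8, accessory subunits, had log2 fold changes of 0.42 and 0.30, and edgeR's adjusted p was 0.0505 for both, just outside the threshold of 0.05. None of the tested subunits named here that carry electrons passed. NDUFV1, which binds the flavin that takes electrons from NADH, had a log2 fold change of 0.19 (SE 0.09, adjusted p = 0.23), and NDUFV2, an iron-sulfur subunit, 0.12 (SE 0.08, adjusted p = 0.383). NDUFS7, an iron-sulfur subunit at the ubiquinone site, had -0.07 (SE 0.22). NDUFS3, a core subunit that carries no flavin or iron-sulfur centre, had -0.06 (SE 0.10). NDUFS8, an iron-sulfur subunit, was at 10.2, 9.03 and 9.31 CPM in shTRIM21 cells, against 9.20, 6.74 and 6.37 CPM in shControl cells, so its groups overlapped (log2 fold change 0.36, SE 0.18, adjusted p = 0.258). NDUFA9, an accessory subunit near the ubiquinone site, was at 58.0, 59.6 and 62.2 CPM in shTRIM21 cells, against 67.6, 67.9 and 66.4 CPM in shControl cells. All of its shTRIM21 values lay below the controls, and it did not pass the test (log2 fold change -0.17, SE 0.07, adjusted p = 0.186).

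NDUFS1, the largest iron-sulfur subunit, was listed at 0 in all 6 libraries and was not read as absent, because NDUFS3, NDUFS7, NDUFS8, NDUFV1 and NDUFV2 of the same complex were counted. Among the complex I genes that the symbol rule takes in, the most abundant by count were NDUFA5, NDUFV2 and NDUFB9. NDUFA5, an accessory subunit, was at 111, 116 and 108 CPM in shTRIM21 cells, against 110, 106 and 132 CPM in shControl cells. NDUFA5 had overlapping groups (log2 fold change -0.05, SE 0.08). Per kilobase of exon, the tested complex I genes ran from 1.76 CPM per kb (NDUFS7) to 169.9 CPM per kb (NDUFS5), with a median of 16.4. NDUFA4, a subunit first assigned to complex I and now known as part of complex IV, had a log2 fold change of 0.21 (SE 0.09, adjusted p = 0.16). Its hypoxia-linked paralog NDUFA4L2 was too low to test, at 0.0392, 0.225 and 0.502 CPM in shTRIM21 cells against 0, 0.0817 and 0 CPM in shControl cells.

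Complex II, succinate dehydrogenase, gave 0 calls in 4 tested genes and a median log2 fold change of 0.06. That median was 0.02 without shControl replicate 2, 0.11 without shControl replicate 3 and 0.11 without replicate 3 of both groups. Its summed level was 331 to 344 CPM in shTRIM21 libraries and 322 to 338 CPM in shControl libraries, which overlap. SDHA, the flavoprotein, was at 67.4, 66.3 and 68.2 CPM in shTRIM21 cells, against 62.7, 59.1 and 64.6 CPM in shControl cells (log2 fold change 0.12, SE 0.07, adjusted p = 0.388). SDHB, the iron-sulfur subunit, was at 62.5, 59.6 and 62.0 CPM in shTRIM21 cells, against 56.0, 53.6 and 56.1 CPM in shControl cells (log2 fold change 0.15, SE 0.08, adjusted p = 0.242). Both had groups that did not overlap, though neither passed the test by edgeR. Every shTRIM21 library lay above every shControl library in 14.1% of all tested genes. The membrane anchors SDHC and SDHD had log2 fold changes of -0.05 (SE 0.07) and 0.00 (SE 0.07), with overlapping groups. SDHA has 3 pseudogene rows, SDHAP1, SDHAP2 and SDHAP3, with highest counts of 186, 147 and 66, so reads shared with SDHA could be split between them.

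Complex III, the cytochrome bc1 complex, held the subunit gene that fell. UQCRC2 (ENSG00000140740, chromosome 16, 21952660 to 21983660, plus strand), a core protein related to mitochondrial processing peptidase, was at 54.6, 60.5 and 58.9 CPM in shTRIM21 cells, against 82.8, 77.0 and 78.7 CPM in shControl cells. Every shTRIM21 library was below every shControl library, by more than the spread within either group. The log2 fold change was -0.46 (SE 0.08, adjusted p = 0.000777 by edgeR's quasi-likelihood test), a fold of 0.73. Across all 17 other fits the adjusted p of UQCRC2 ran from 9.6e-07 to 0.00782. UQCRC1, its partner core protein, was at 48.9, 45.3 and 47.2 CPM in shTRIM21 cells, against 50.02, 49.8 and 51.2 CPM in shControl cells. Its groups did not overlap, and it did not pass the test (log2 fold change -0.09, SE 0.08, adjusted p = 0.536). UQCRC1 passed in a fit with an offset for length and GC, at -0.23 and an adjusted p of 0.0497.

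UQCRQ, a small subunit that packs against cytochrome b (ENSG00000164405, chromosome 5, 132866560 to 132868031), was at 37.0, 38.2 and 35.7 CPM in shTRIM21 cells, against 30.1, 28.8 and 29.4 CPM in shControl cells. Its groups did not overlap, and it rose (log2 fold change 0.33, SE 0.09, adjusted p = 0.0316 by edgeR). Its annotated exons overlap those of GDF9, a growth factor gene on the opposite strand, over 30% of their length, and GDF9 was also called higher (log2 fold change 0.63, adjusted p = 0.015). The strand used in counting is not given in the sources used here, so reads of the pair could not be told apart. UQCRQ kept its call in 1 of 6 fits that left out a library, that without shControl replicate 3 (log2 fold change 0.31 to 0.35, adjusted p up to 0.126), and in 9 of the 11 other fits. The 6 remaining tested genes of complex III did not pass. UQCRB, the most abundant, was at 184, 214 and 204 CPM in shTRIM21 cells, against 158, 152 and 196 CPM in shControl cells, which overlap at the highest control (log2 fold change 0.25, SE 0.09, adjusted p = 0.0772). UQCRFS1, the Rieske iron-sulfur protein, had a log2 fold change of 0.14 (SE 0.07) and UQCRH, the hinge protein, 0.13 (SE 0.08). The complex summed to 569 to 590 CPM in shTRIM21 libraries and 525 to 573 CPM in shControl libraries, with a median log2 fold change of 0.14. UQCRHL, a retrocopy-like relative of UQCRH, was at 0 in every library.

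Complex IV, cytochrome c oxidase, had 15 rows and 10 tested genes, of which 6 rose, 0 fell and 4 did not pass. All 10 values were above 0, the median log2 fold change was 0.28, and 9 of 10 had groups that did not overlap. Over all tested genes 4.43% rose and 51.8% were above 0, and every shTRIM21 library lay above every shControl library in 14.1%. The complex summed to 561 to 573 CPM in shTRIM21 libraries and 467 to 487 CPM in shControl libraries. COX5B, which holds zinc (ENSG00000135940, chromosome 2, 97646040 to 97648383), was at 22.1, 20.4 and 21.0 CPM in shTRIM21 cells, against 13.8, 17.9 and 14.3 CPM in shControl cells. The groups did not overlap, the log2 fold change was 0.47 (SE 0.13, adjusted p = 0.031), and the call was lost without any single shTRIM21 library or shControl replicate 1 (0.40 to 0.59 over the 6 fits, adjusted p up to 0.134) and in 2 of the 11 other fits. COX8A, the smallest subunit (ENSG00000176340, chromosome 11, 63974607 to 63976543), was at 38.9, 29.5 and 32.8 CPM in shTRIM21 cells, against 26.8, 27.0 and 19.8 CPM in shControl cells. Its log2 fold change was 0.46 (SE 0.13, adjusted p = 0.0316), with shTRIM21 replicate 1 highest and shControl replicate 3 lowest of the 6. The call of COX8A was lost without shTRIM21 replicate 1, shTRIM21 replicate 3 or shControl replicate 3 (0.33 to 0.55 over the 6 fits, adjusted p up to 0.168).

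COX7A2L (ENSG00000115944, chromosome 2, 42333546 to 42425088), known as a factor that joins complexes III and IV into supercomplexes, was at 66.9, 81.1 and 66.9 CPM in shTRIM21 cells, against 53.1, 55.3 and 61.1 CPM in shControl cells. It rose by a log2 fold change of 0.34 (SE 0.09, adjusted p = 0.0218 by edgeR) with groups that did not overlap. The call was lost without shTRIM21 replicate 2 and without shControl replicates 1 or 2 (adjusted p up to 0.156). COX7B (ENSG00000131174, chromosome X, 77899438 to 77907373), a small transmembrane subunit, was at 60.1, 57.6 and 60.3 CPM in shTRIM21 cells, against 46.3, 43.6 and 52.8 CPM in shControl cells. It had a log2 fold change of 0.32 (SE 0.09, adjusted p = 0.0262) and did not overlap. COX6C (ENSG00000164919, chromosome 8, 99873200 to 99894062), the most abundant by count of the complex IV genes that the symbol rule takes in, was at 102, 108 and 101 CPM in shTRIM21 cells, against 82.2, 77.8 and 95.02 CPM in shControl cells. It had a log2 fold change of 0.28 (SE 0.08, adjusted p = 0.028), and its lowest shTRIM21 value exceeded its highest control. COX6A1 (ENSG00000111775, chromosome 12, 120438090 to 120440742), the form found in most tissues, was at 62.4, 55.0 and 55.2 CPM in shTRIM21 cells, against 51.2, 46.2 and 44.3 CPM in shControl cells. Its log2 fold change was 0.29 (SE 0.09, adjusted p = 0.0469). COX6A1 kept its call in 0 of 6 fits that left out a library (0.22 to 0.35, adjusted p 0.0508 to 0.193) and in 4 of the 11 other fits (adjusted p up to 0.158). COX7B and COX6C kept theirs in 1 of 6, that without shControl replicate 3 (COX7B 0.26 to 0.41, adjusted p up to 0.134; COX6C 0.22 to 0.38, adjusted p up to 0.146).

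**Figure D3:**
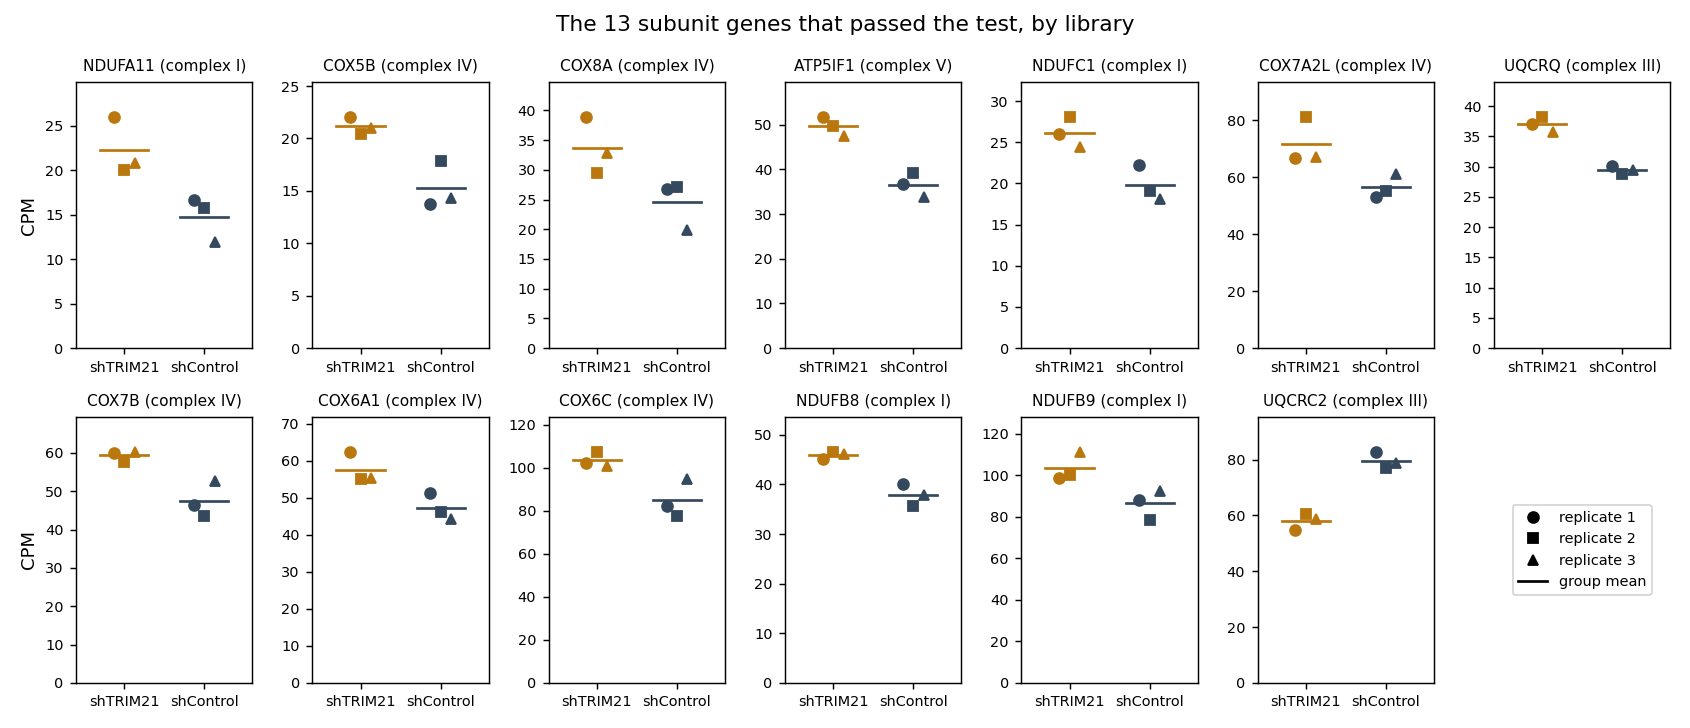
CPM in each library for the 13 subunit genes that passed the test, with shTRIM21 left of shControl, 1 marker per replicate number and a line at the group mean; each y axis starts at 0. In none of the 13 do the groups overlap, and UQCRC2 alone is lower in shTRIM21 cells. The 13 were chosen by a test of these same values, so the separation adds no support. Of all tested genes 14.1% had every shTRIM21 library above every shControl library, and 13.9% had every one below.

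The remaining tested complex IV genes were COX6B1, COX7A2, COX5A and COX7C, with log2 fold changes of 0.24, 0.20, 0.12 and 0.12. COX6B1, which faces the intermembrane space, was at 51.3, 49.3 and 51.7 CPM in shTRIM21 cells, against 45.5, 43.6 and 40.2 CPM in shControl cells, a difference that did not pass (adjusted p = 0.0894). The forms of these genes that belong to muscle, testis or other tissues were at 0 (COX6A2, COX7B2, COX8C) or too low to test (COX7A1, highest 0.142 CPM; COX6B2, highest 0.51 CPM). COX4I1, which the symbol rule does not take in, is the subunit of most tissues; it was at 127, 120 and 131 CPM in shTRIM21 cells, against 105, 106 and 101 CPM in shControl cells. It rose with a log2 fold change of 0.28 (SE 0.07, adjusted p = 0.0128), lost only without shTRIM21 replicate 3 among the 6 fits that left out a library (adjusted p = 0.082). NDUFAB1, CYC1 and CYCS, the acyl carrier protein, cytochrome c1 and cytochrome c, did not pass (log2 fold changes 0.12, -0.09 and -0.03).

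Complex V, ATP synthase, had 18 tested genes, of which 1 rose (5.56%, against 4.43% of all tested genes) and 0 fell. The complex had all 18 values above 0 (against 51.8% of all tested genes), with a median log2 fold change of 0.16 (0.08 with an offset for length and GC). Its level was the highest of the complexes, at 1981 to 2013 CPM in shTRIM21 libraries and 1819 to 1853 CPM in shControl libraries. ATP5IF1 (ENSG00000130770, chromosome 1, 28236109 to 28246906, plus strand), the inhibitor of ATP hydrolysis by the enzyme, was at 51.7, 49.7 and 47.5 CPM in shTRIM21 cells, against 36.8, 39.1 and 33.9 CPM in shControl cells. All shTRIM21 values lay at least 8.42 CPM above the highest control. It rose with a log2 fold change of 0.44 (SE 0.09, adjusted p = 0.00426 by edgeR's quasi-likelihood test), and kept its call in all 17 other fits (adjusted p up to 0.0265). ATP5IF1 is a regulator of the enzyme, and no other complex V gene passed. ATP5F1A and ATP5F1B, the alpha and beta subunits of the catalytic head, had log2 fold changes of 0.04 (SE 0.06) and 0.10 (SE 0.06). ATP5F1B was at 576, 560.4 and 546 CPM in shTRIM21 cells, against 524, 542 and 508 CPM in shControl cells, and 295 CPM per kb was the highest of the subunit genes per length. ATP5MC1, ATP5MC2 and ATP5MC3, which encode the same mature ring subunit, had log2 fold changes of 0.26, 0.15 and 0.18, and ATP5MC3 came closest to the threshold (adjusted p = 0.0875). ATP5PF of the peripheral stalk and ATP5MG of the membrane part had log2 fold changes of 0.32 and 0.22, with adjusted p of 0.0502 and 0.0517. ATP5PF shares 27.3% of its exon length with GABPA on the opposite strand. ATP5MGL, a relative of ATP5MG, was too low to test.

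The rows outside the subunit set gave 0 calls. The 2 read-through rows overlap subunit or other genes: ATP5MF-PTCD1 shares 94.2% of its exons with PTCD1 and had a log2 fold change of 0.27 (adjusted p = 0.0665), and NDUFC2-KCTD14 had 0.27 (adjusted p = 0.205). The noncoding rows NDUFA6-DT, NDUFB2-AS1 and NDUFV2-AS1 had log2 fold changes of 0.91, 0.14 and 0.25. NDUFA6-DT was at 1.96, 2.34 and 3.36 CPM in shTRIM21 cells, against 0.654, 1.43 and 1.96 CPM in shControl cells, and did not pass (adjusted p = 0.188). Of the tested subunit genes 12 share at least 10% of their exon length with another gene in the tables, 9 of them with one on the opposite strand.

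Set by role, a list of 12 tested core subunits gave 0 calls and a median log2 fold change of 0.11, with 8 values above 0. Most of them carry flavin, iron-sulfur centres or catalytic sites, but NDUFS3 and UQCRC1 carry no flavin or iron-sulfur centre. UQCRC2, the partner core protein of UQCRC1, fell and was not on the list. The 64 other tested subunit genes held all 13 calls, with a median of 0.22. The list of core subunits holds no complex IV gene, so the 6 complex IV genes that rose fall among the others by its choice. Of all tested genes 9.08% were called, so 0 calls in 12 genes lies near that share. The difference between these sets was not tested.

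The genes that build the complexes gave calls in both directions, and their shares are read against the 4.43% of all tested genes that rose and the 4.66% that fell. Of 27 complex IV assembly factors 2 rose (7.41%) and 0 fell, COX14 (log2 fold change 0.62, adjusted p = 0.0206), which binds newly made COX1, and COX15 (0.28, adjusted p = 0.0128), which makes heme a. COX14 was at 16.0, 16.6 and 13.4 CPM in shTRIM21 cells, against 8.47, 12.01 and 9.51 CPM in shControl cells, which do not overlap. Of 16 complex I assembly factors 1 rose (6.25%) and 1 fell (6.25%). NDUFAF3 rose (0.68, adjusted p = 0.0305) and NDUFAF4 fell (-0.34, adjusted p = 0.0372), although these proteins are known to act together. NDUFAF3 was at 14.4, 10.5 and 9.43 CPM in shTRIM21 cells, against 7.53, 7.97 and 6.05 CPM in shControl cells. NDUFAF4 was at 31.3, 32.9 and 33.3 CPM in shTRIM21 cells, against 42.6, 36.1 and 44.5 CPM in shControl cells. Of 6 complex III assembly factors 1 fell (16.7%): TTC19, which helps the Rieske protein to settle (log2 fold change -0.42, SE 0.08, adjusted p = 0.00378). Complex II and V assembly factors gave 0 calls in 4 and 5 genes. With 1 library left out, COX14 lost its call without shTRIM21 replicates 1 or 2 or shControl replicate 1 (adjusted p up to 0.102), and COX15 without shTRIM21 replicates 2 or 3 or shControl replicates 1 or 2 (up to 0.0895). NDUFAF3 lost its call without shTRIM21 replicates 1 or 2 or shControl replicates 1 or 3 (up to 0.184), and NDUFAF4 kept its call only without shControl replicate 2 (up to 0.131). TTC19 kept its call in all 6.

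Among 18 regulators of respiratory gene transcription, 16 were tested, 0 rose and 2 fell (12.5%, against 4.66% of all tested genes). Their median log2 fold change was -0.06. GABPB1, the partner subunit of GABPA, was at 46.9, 45.9 and 42.8 CPM in shTRIM21 cells, against 54.0, 61.7 and 66.4 CPM in shControl cells. Its groups did not overlap, and its log2 fold change was -0.43 (SE 0.09, adjusted p = 0.00534), a call kept in all 17 other fits. YY1 was at 128, 138 and 143 CPM in shTRIM21 cells, against 152, 163 and 171 CPM in shControl cells (log2 fold change -0.25, SE 0.07, adjusted p = 0.028), a call lost without any single shTRIM21 library or shControl replicate 2 (adjusted p up to 0.119). GABPA itself and NRF1 did not pass (log2 fold changes -0.11 and -0.08, adjusted p = 0.478 and 0.814).

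Length, base composition and library make-up move with these values. The median exon length was 1604 bases for the subunit genes and 3521 bases for all tested genes with an annotation. Across genes, which are not independent replicates, Spearman's rho of log2 fold change with exon length was -0.24 over the 76 subunit genes and -0.21 over 13454 genes in all. With GC content it was 0.18 and 0.24. With an offset for both, 15 subunit genes rose, 2 fell, 61 values were above 0 and the median was 0.11. Of all tested genes 13.8% were called with that offset, higher and lower together, against 9.08% in the main fit. Of the 13 subunit calls 8 held with the offset, and COX5B, COX6A1, NDUFB8, NDUFC1 and UQCRQ lost theirs. The share of counts in rRNA genes was 15.2%, 13.5% and 9.55% in shTRIM21 libraries, against 14.7%, 13.2% and 6.69% in shControl libraries. Without rRNA genes 11 of the 13 calls held. Without replicate 3 of both groups, which have the lowest rRNA share, 15 subunit genes rose and 1 fell. Of all tested genes 10.3% were called in that fit. Only 9 of the 13 calls held there, and COX5B, COX6A1, COX8A and NDUFB8 lost theirs.

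**Figure D4:**
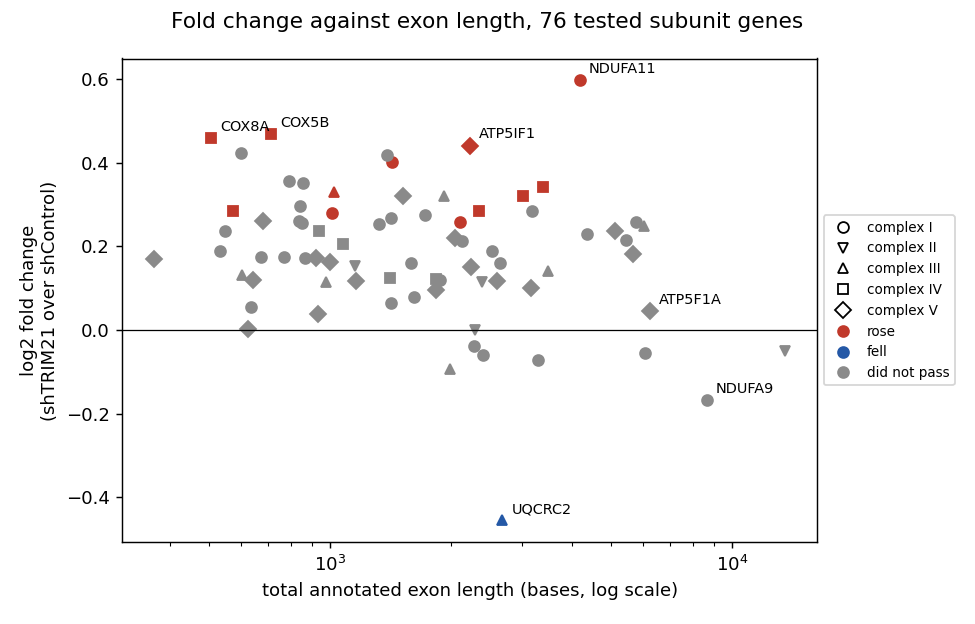
Log2 fold change, shTRIM21 over shControl, of the 76 tested subunit genes against total annotated exon length (log axis), with the shape giving the complex and the colour the call. Short and long genes both appear among those that rose, from COX8A at 507 bases to NDUFA11 at 4184 bases.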

How the data were processed

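Counts of reads per gene symbol, whole numbers with no normalization, were deposited by the authors for each of 6 libraries. The submitters' processing notes name the hg38 build, limma 3.52.2, edgeR 3.38.1 and TopHat2 2.1.1. How reads were counted (tool, annotation, strand, multiple hits) is not given in the sources used here. Of 28278 symbols, 9276 were at 0 in all libraries, a value not read as absence. The fit used edgeR 4.0.16 in R 4.3.3 on rows kept by filterByExpr, which left 14002 genes, with TMM scaling, the quasi-likelihood test and Benjamini-Hochberg adjustment over all tested genes at a threshold of 0.05. Each SE is the log2 fold change divided by the square root of its F statistic. CPM is relative to the TMM-scaled library, and CPM per kb divides it by annotated exon length (GENCODE release 29, which matched 26216 symbols). The biological coefficient of variation was 10.7%. Members, gene lists, tests and alternatives were chosen with earlier results of these data known. Named genes were TRIM21, every member past the threshold, the 3 with the highest CPM per complex, core subunits, paralog pairs, members at 0, subunits outside the symbol rule and called members of the other lists; other genes given were chosen after their values were seen. Alternatives were other scalings, no filter, DESeq2 1.42.0, limma-voom 3.58.1, gene sets left out, an offset, a replicate block and each library left out. The test was checked on simulated counts. Some genes that met the rule for named genes are not reported here but are in the counts.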

Additional observations from a re-analysis of the deposited data

How the results depend on the processing

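The direction of the subunit genes' median was the same in every fit, and no named gene that was called changed sign. Of 53 named genes tested, 30 kept their direction and side of the threshold in all 17 other fits. The number of subunit genes that rose was 19 with upper-quartile scaling and 19 with the replicate block, and 2 fell with an offset for length and GC, and 2 with the replicate block and that offset, UQCRC1 being the added gene. Their median log2 fold change was 0.11 in both offset fits (0.1147 and 0.1137). All genes called numbered 1272 (9.08% of those tested), against 1338 (9.56%) with upper-quartile scaling and 1699 (12.1%) with the block. They numbered 1937 (13.8%) with the offset and 2080 (14.9%) with the block and offset. Leaving out 1 library at a time, 3 to 20 subunit genes rose, 602 to 1737 genes were called in all, and TRIM21 had log2 fold changes of -0.82 to -0.56. TRIM21 had -0.62 (adjusted p = 0.0734) without shTRIM21 replicate 3 and -0.45 (adjusted p = 0.114) with replicate 3 of both groups left out. The cause of these moves was not tested. All fits without a library have fewer samples, and 1737 genes were called without shControl replicate 3. Differences in counts between 2 libraries were also taken as a chi-square per degree of freedom. Between shControl replicates it was 5.88 for 1 and 2, 77.5 for 1 and 3 and 57.6 for 2 and 3. Between shTRIM21 replicates it was 10.9 for 1 and 2, 37.4 for 1 and 3 and 18.3 for 2 and 3. Same-numbered libraries correlated at 0.096, -0.012 and 0.091 in their deviations from group means, and differently numbered libraries at -0.121 to 0.048. With 3 libraries per group these values cannot decide whether a number marks a shared culture or day. With the block 20 subunit genes passed, 13 of them shared with the main fit, and 12.1% of all tested genes were called.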

Other observations

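Other mitochondrial gene groups are set beside all tested genes, of which 4.43% rose and 4.66% fell, with a median log2 fold change of 0.01. Of 18 citric acid cycle genes 0 passed the edgeR test, with a median log2 fold change of -0.06. In that test 3 of the 18 had an unadjusted p under 0.05, against 3188 of all 14002 tested genes, which is a larger share. Of 21 genes of mitochondrial import and mass 1 rose (4.76%), SLC25A6, an ADP/ATP carrier, at 275, 249.3 and 257 CPM in shTRIM21 cells, against 213, 223 and 187 CPM in shControl cells (log2 fold change 0.33, SE 0.07, adjusted p = 0.00626). Of 13 genes of cristae organization 1 rose (7.69%), STOML2, a scaffold of the inner membrane, at 101, 93.1 and 87.5 CPM in shTRIM21 cells, against 76.9, 74.3 and 72.3 CPM in shControl cells (log2 fold change 0.33, SE 0.07, adjusted p = 0.00838). Both kept the call in all 17 other fits. Of 13 coenzyme Q synthesis genes 1 fell (7.69%), PDSS2, which builds the isoprenoid tail, at 14.9, 17.1 and 18.2 CPM in shTRIM21 cells, against 21.7, 22.72 and 24.0 CPM in shControl cells (log2 fold change -0.45, SE 0.12, adjusted p = 0.028), a call lost without shTRIM21 replicates 1 or 2 or shControl replicates 1 or 2 (adjusted p up to 0.115).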
